A study of Mus musculus with 10 samples.

Results

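The genes described here are the mouse tyrosine and dual-specificity protein phosphatases named Ptpn, Ptpr and Dusp, together with the chromatin regions nearest to them. They were chosen by name and not by any measured value: protein-coding genes of the mm10 annotation whose symbol starts with Ptpn, Ptpr or Dusp followed by a digit or letter, without Ptpn13. The rule gave 61 of 21900 protein-coding genes. Each region marked by H3K4me2, the dimethyl form of lysine 4 on histone H3 that is found at promoters and enhancers, was assigned to the nearest protein-coding gene within 100000 bp. Of 30062 merged regions, 164 went to a phosphatase gene, and of 152121 peaks, 773 did. Regions were found at 51 of the genes. The other 10 (Dusp13, Dusp18, Dusp21, Dusp28, Ptpn20, Ptprd, Ptprm, Ptpro, Ptprq and Ptprz1) had none assigned, although the start sites of Dusp18 and Dusp28 lay in regions assigned to neighbouring genes in all 8 libraries.

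The study profiled H3K4me2 by chromatin immunoprecipitation and sequencing in lymphocytes sorted from mice that carry a yellow fluorescent reporter at Gata3 (written Gata3-YFP/YFP in the labels) and had airway inflammation. The sorted types were naive T cells, T helper 2 (Th2) cells, which make type 2 cytokines, and group 2 innate lymphoid cells (ILC2s), which make the same cytokines but carry no T-cell receptor. Each of these was sampled once in bronchoalveolar lavage and once in the mediastinal lymph node (2 libraries per type). Spleen and thymus contributed CD4+ lymphocytes, with 1 library from either organ. No label gives the age of the mice, the allergen or the gate for naive T cells, nor says whether libraries came from separate animals. The spread between the libraries of a type therefore also holds the site. The samples titled as IgG controls carry the H3K4me2 antibody in their labels, and they enter here only through the peak caller's background.

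Protein tyrosine phosphatases remove the phosphate groups that receptor-linked kinases add. Receptor-type members such as CD45 (Ptprc) sit in the membrane, and CD45 keeps the Src-family kinases Lck and Fyn ready by removing an inhibitory phosphate. Non-receptor members such as SHP-1 (Ptpn6), PEP (Ptpn22) and TC-PTP (Ptpn2) mostly restrain antigen receptor or JAK-STAT signalling. Most dual-specificity phosphatases of the Dusp family act on phosphotyrosine and phosphothreonine, and the MAP kinase phosphatases among them switch off ERK, JNK or p38. Many of the latter are induced by the same signals that they shut down.

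Start sites within some regions that differed between cell types are given as the 250 bases upstream of the listed transcription start. The sequences are in gene orientation, from RefSeq on GRCm38.p6, the patched form of mm10. Capitals mark a match to a searched motif. The motifs were AGATAA for GATA factors, CAGGAAG for ETS factors, TGACTCA for AP-1 and TGTGGTT for Runx factors, each on both strands. The first windows belong to 3 MAP kinase phosphatases whose promoter regions differed in summed tags between cell types: Dusp10 at chr1:184034131-184034380 (plus strand), Dusp2 at chr2:127335909-127336158 (plus strand) and Dusp16 at chr6:134792629-134792878 (minus strand). These 3 starts had a peak over them in all 8 libraries.

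Dusp10: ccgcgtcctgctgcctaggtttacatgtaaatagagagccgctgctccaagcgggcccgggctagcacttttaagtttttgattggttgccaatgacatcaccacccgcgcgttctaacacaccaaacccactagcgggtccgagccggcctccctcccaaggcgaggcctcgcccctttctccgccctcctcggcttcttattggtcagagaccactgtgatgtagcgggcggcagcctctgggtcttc
Dusp2: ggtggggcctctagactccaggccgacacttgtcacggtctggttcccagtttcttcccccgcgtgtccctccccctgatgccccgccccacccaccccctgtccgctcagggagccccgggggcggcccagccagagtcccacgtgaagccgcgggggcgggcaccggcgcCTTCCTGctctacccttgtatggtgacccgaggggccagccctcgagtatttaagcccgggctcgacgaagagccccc
Dusp16: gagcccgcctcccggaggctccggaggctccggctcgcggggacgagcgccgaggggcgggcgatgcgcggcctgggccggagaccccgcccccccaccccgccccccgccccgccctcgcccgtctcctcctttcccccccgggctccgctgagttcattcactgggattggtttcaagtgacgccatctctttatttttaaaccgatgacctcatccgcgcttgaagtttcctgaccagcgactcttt

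These windows are rich in G and C, at 59.6%, 70.4% and 68.4%, and hold 17, 19 and 27 CpG pairs. The Dusp2 window holds 1 ETS match, 78 bases before the start, and the other two hold none of the motifs. The next windows belong to start sites whose presence in the peak lists differed between cell types. Ptpre has 3 listed groups of starts, with windows at chr7:135537574-135537823, chr7:135593231-135593480 and chr7:135605578-135605827 (all plus strand). For Ptpn5 the window is chr7:47132599-47132848 (minus strand), and for Ptprr chr10:116177008-116177257 (plus strand).

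Ptpre first start: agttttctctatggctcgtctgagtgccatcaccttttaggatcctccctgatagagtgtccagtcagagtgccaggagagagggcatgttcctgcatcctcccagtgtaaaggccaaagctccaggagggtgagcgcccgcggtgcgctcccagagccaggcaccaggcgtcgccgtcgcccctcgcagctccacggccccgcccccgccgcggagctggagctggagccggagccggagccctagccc
Ptpre middle start: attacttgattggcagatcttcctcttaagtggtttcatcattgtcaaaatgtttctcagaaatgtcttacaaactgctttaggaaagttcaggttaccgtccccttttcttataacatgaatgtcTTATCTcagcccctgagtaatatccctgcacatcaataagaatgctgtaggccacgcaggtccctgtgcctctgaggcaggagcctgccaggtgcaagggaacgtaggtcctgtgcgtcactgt
Ptpre last start: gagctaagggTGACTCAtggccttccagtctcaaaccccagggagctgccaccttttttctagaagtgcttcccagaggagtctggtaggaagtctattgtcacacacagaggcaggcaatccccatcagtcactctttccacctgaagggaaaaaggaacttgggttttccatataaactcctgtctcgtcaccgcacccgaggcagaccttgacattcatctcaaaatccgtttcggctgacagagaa
Ptpn5: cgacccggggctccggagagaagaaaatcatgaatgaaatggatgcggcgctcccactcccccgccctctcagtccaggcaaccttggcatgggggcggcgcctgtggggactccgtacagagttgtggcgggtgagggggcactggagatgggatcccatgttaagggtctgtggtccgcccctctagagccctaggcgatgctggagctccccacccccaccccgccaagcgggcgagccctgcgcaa
Ptprr: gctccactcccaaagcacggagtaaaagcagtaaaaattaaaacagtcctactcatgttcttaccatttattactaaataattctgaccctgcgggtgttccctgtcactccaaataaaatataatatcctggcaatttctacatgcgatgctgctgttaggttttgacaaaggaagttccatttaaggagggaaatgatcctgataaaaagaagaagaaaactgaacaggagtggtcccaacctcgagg

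The first Ptpre start has 17 CpG pairs and 66.0% G and C. The middle and last Ptpre starts have 4 and 5 CpG pairs, and the Ptprr start shown has 4. The Ptpn5 start shown has 16, with 66.0% G and C. Another listed Ptprr start in the same region has 9, and another Ptpn5 start has 5. The middle Ptpre window holds 1 GATA match, 124 bases before the start, and the last Ptpre window holds 1 AP-1 match. Over all 66 windows of the phosphatase genes, 4.5% held the GATA letters, 10.6% the ETS letters, 4.5% an AP-1 and 1.5% the Runx letters. The shares over all 21263 windows of the same length were 8.8%, 10.2%, 4.1% and 3.8%. The median number of CpG pairs was 15 in the windows of the phosphatase genes and 10 in all windows.

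Values below are normalized tag counts, the sequenced tags in a library's peaks within a region, scaled by the authors to 10000000 tags per library. They are summed over the length of a peak, so they are compared between cell types and not between genes. A value for a cell type is given first for the lavage and then for the lymph node library. The 8 libraries held 11870820 to 24945548 tags and 14723 to 21985 peaks, and the Th2 libraries were the shallowest by number of peaks. A library in which a region has no peak had fewer than about 40 normalized tags there or did not pass the caller's other filters, so absence from a list is not absence of the mark. The marker lists fixed for T cells and for ILC2s followed the labels, while the Th2 list was higher in ILC2s than in Th2 cells. The T-cell list (Cd3e, Cd3d, Cd3g, Cd247, Cd4, Lat, Themis) summed to 1216.2 and 1383.7 tags in ILC2s and to 7239.8 to 15721.8 elsewhere, with Cd4 and Themis at 0 in ILC2s and Cd3g without an assigned region. The ILC2 list summed to 17933.0 and 19196.3 in ILC2s and to 1080.5 to 4244.7 elsewhere. The lavage naive T library stood apart from its partner: Il1rl1, Il13 and Il4 had 282.1, 131.7 and 187.7 tags there and none in the node naive T and spleen libraries. Of the other Th2 list genes, Gata3 had 1683.1 tags in the lavage library, 2107.7 in the node one and 1908.4 in spleen. Il5 had 79.8, 46.7 and 0. The whole Th2 list summed to 2364.4 and 2154.4 tags in naive T cells, 1908.4 in spleen and 2064.4 in thymus. Its sums were 6091.6 and 5570.8 in Th2 cells and 9480.2 and 9634.2 in ILC2s. Tcf7 and Lef1, transcription factors of resting T cells, had 1225.4 and 2041.6 tags in the lavage library against 5357.8 and 7462.7 in the node one. In the thymus library Cd8a and Cd8b1 had 3588.3 and 4033.9 tags, against 0 and at most 104.4 elsewhere. The B-cell genes Cd79a and Ms4a1 and the macrophage genes Adgre1, Csf1r and Lyz2 were at 0 in all libraries, and the macrophage and neutrophil list summed to at most 398.8 tags. Of the other genes on the B-cell list, Ebf1 had 264.5 tags in node naive T cells, 261.4 and 197.5 in ILC2s, 238.7 in spleen and 309.4 in thymus, and Pax5 had 138.7 and 94.6 in ILC2s, 52.2 in spleen and 48.9 in thymus. The lists for NK cells, for eosinophils and mast cells and for airway epithelium summed to 472.4 to 1976.4, 110.3 to 1264.1 and 41.3 to 549.0, with Ncr1, Epx, Siglecf and Sftpc at 0 throughout. The part of other cell types in the results was not tested, and in sorted populations fewer cells of a type and less mark per cell cannot be told apart.

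Between 72 and 104 of the 164 regions had a peak in any one library: 92 and 97 in naive T cells, 77 and 72 in Th2 cells, 94 and 96 in ILC2s, 90 in spleen and 104 in thymus. In all 8 libraries 47 were called, or 28.7%, against 36.7% of all regions. Start sites of phosphatase genes were often marked: of the 49 members with a listed promoter, 26 (53.1%) had a peak over it in all 8 libraries and 10 (20.4%) in none, against 40.5% and 42.8% of 17492 genes. The regions called in all 8 libraries lay mostly at starts (28 of 47 at a listed promoter). Of the 43 regions called in both libraries of one airway type and in neither of another, 5 lay at one. The same counts were not made over all regions, so whether this is particular to phosphatase genes is not known. The plot of regions per gene shows which genes gained or lost regions by library.

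**Figure D1:**
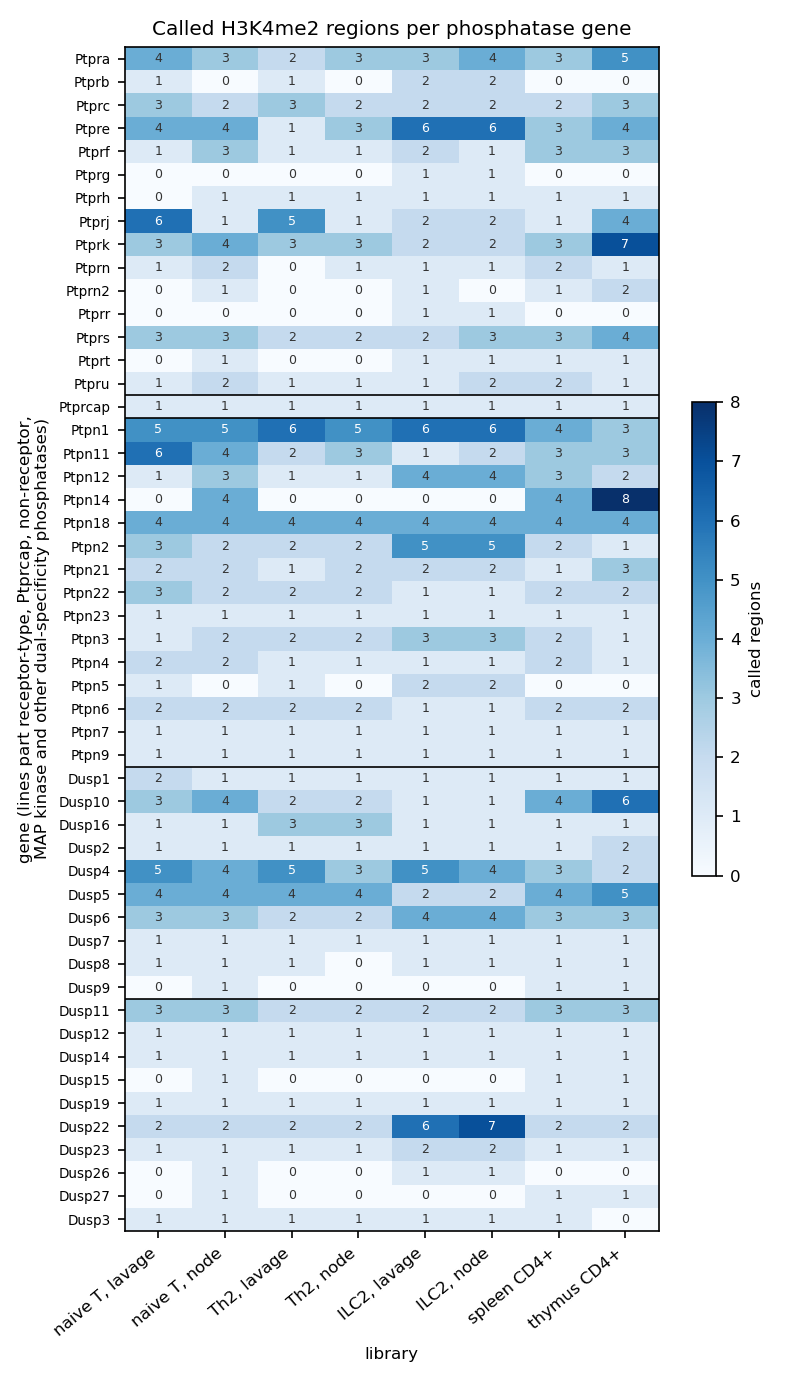
Number of H3K4me2 regions with a peak in each of the 8 libraries (columns) at phosphatase genes (rows), with the number written in each cell. Dusp22 has 6 and 7 regions in the ILC2 libraries and 2 in every other, and Ptpn14 has 8 in thymus and none in lavage naive T, Th2 or ILC2 libraries.

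ILC2s were first set against cells sorted as naive T cells. Regions of Dusp22, Ptpn2, Ptpn3, Ptpn5 and Ptpre were called in both ILC2 libraries and in neither naive T library at 2 or more places each. In the other direction stood Dusp10 and Dusp5, with 2 regions each called in both naive T libraries and in neither ILC2 library. There were 19 regions of the first kind, at 12 genes, or 11.6% of the 164 against 10.7% of all regions. Those of the second kind numbered 10, at 8 genes, or 6.1% against 2.68%. Presence in a list is a threshold call, so these counts were not tested and are descriptions. Leaving out a library removes a condition from the rule, here and below, so such counts can only stay or rise. Without the lavage naive T library the naive count was 27 (16.5%, against 16.3% of all), and without the node one it was 21 (12.8% against 4.49%). The ILC2 count was then 26 (15.9% against 13.5%) and 24 (14.6% against 16.7%). With 14723 peaks taken from every list by tags, the ILC2 count fell to 11 (8.87% against 7.13%) and the naive count was 11 (8.87% against 5.0%). Of all 8 libraries, both ILC2 libraries and no other had 17 of the regions, at 12 genes, or 10.4% against 8.38%.

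Height here means the tags summed over a library's peaks in a region, so it also grows with peak length. Among regions with a peak in all 6 airway libraries, height was tested with limma, a linear model fitted over all 11644 such regions with Benjamini-Hochberg adjustment at 0.05. Of these, 52 regions at 36 genes were phosphatase regions. In ILC2s relative to naive T cells none was higher and 4 were lower, at Dusp10, Dusp2 and Ptprk, while 2.61% of all tested regions were higher and 1.62% lower. At an unadjusted p under 0.05 there were 21 of the 52 in either direction (40.4%, against 19.1% of all). The median log2 difference was -0.08 over the 52 and -0.02 over all. Between ILC2s and Th2 cells none was higher and 5 were lower, the same 4 and the Dusp16 promoter, against 2.1% and 1.28% of all tested regions, with 23 (44.2%, against 21.8% of all) at an unadjusted p under 0.05. The median was -0.24 over the 52 and -0.01 over all. Between Th2 and naive T cells none passed in either direction, against 0.112% higher and 0.0258% lower of all, with 9 (17.3%, against 19.0% of all) at an unadjusted p under 0.05. Leaving out the lavage naive T library raised the calls over all regions as well as over the phosphatase regions. For ILC2s against naive T cells 6 of the 52 were then higher (11.5%, against 11.1% of all) and 8 lower (15.4% against 5.43%). For Th2 against naive T cells 11 were higher (21.2% against 13.7%) and 4 lower (7.69% against 9.66%), and for ILC2s against Th2 cells 5 were higher (9.62% against 7.51%) and 13 lower (25.0% against 6.13%). Without either ILC2 library none of the 11644 regions passed in any of the 3 comparisons, while the differences themselves changed little (at the Dusp10 promoter -1.82 and -1.84 against naive T cells, from -1.83). Without either Th2 library none of the 11644 regions passed between ILC2s and Th2 cells. Taken within the lavage or within the node, all 9 differences that passed kept their sign, between -0.895 and -2.60. The 2 libraries of a type are its 2 sites, so passing the test already favours a shared sign. Over all 52 regions the sites had opposite signs at 10 for ILC2s against naive T cells. The numbers were 16 for Th2 against naive T cells and 10 for ILC2s against Th2 cells. With tags per kb of peak, 1 of the 52 was lower in ILC2s than in naive T cells and 0 lower than in Th2 cells. Over all 11644 regions 20 and 4 were lower.

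**Figure D2:**
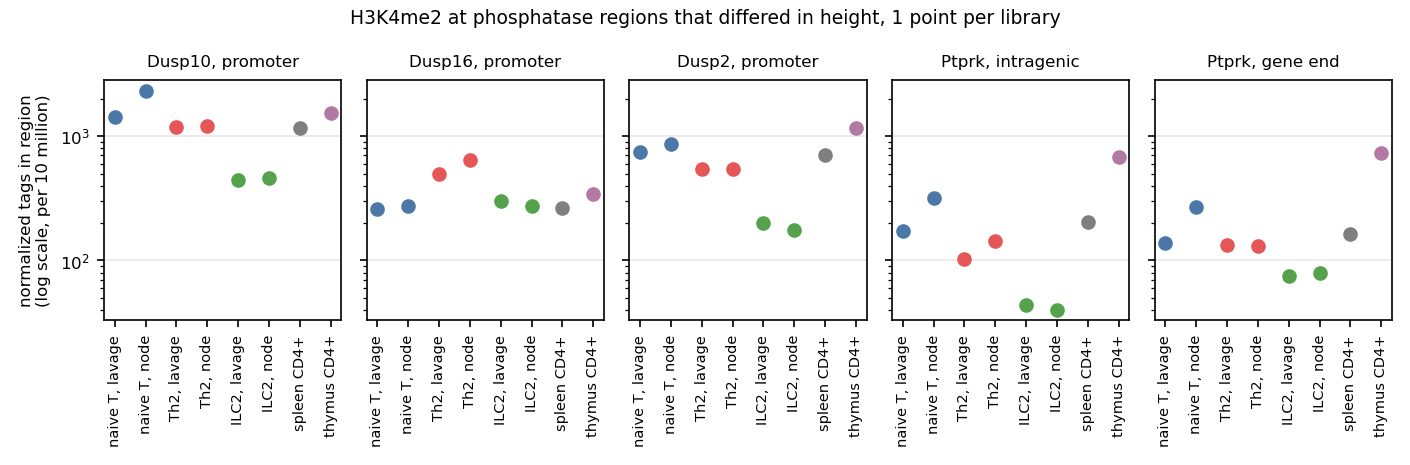
Normalized tag count (log axis) of the 5 phosphatase regions that passed the limma test, 1 point for each of the 8 libraries. At the Dusp10 and Dusp2 promoters and at both Ptprk regions the ILC2 points lie below the points of all other libraries, and at the Dusp16 promoter the Th2 points lie above them.

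Dusp10, which acts on JNK and p38, had a promoter region at chr1:184032096-184052761, which also covers the start of 1700056E22Rik. It held 1435.2 and 2308.4 tags in naive T cells, 1194.4 and 1207.2 in Th2 cells, 440.1 and 463.5 in ILC2s, 1168.7 in spleen and 1528.1 in thymus. Both ILC2 libraries lay below all 6 others. The log2 difference was -1.83 (SE 0.15, adjusted p = 0.0076) against naive T cells and -1.85 (SE 0.15, adjusted p = 0.0102) against Th2 cells. The marked stretch was shorter in ILC2s, at 6487 and 6698 bp against 18180 and 20665 bp in naive T cells and 18071 and 18320 bp in Th2 cells. Per kb of peak, the differences were -0.23 and -0.22 and did not pass. Downstream of the gene the picture was alike in direction: a region 24680 bp away held 56.0 and 83.7 tags in naive T cells, 48.0 and 44.6 in Th2 cells, 62.9 in spleen and 269.5 in thymus, and had no peak in ILC2s. Another, 41407 bp away, was called in naive T cells (70.2 and 123.5), spleen (97.9) and thymus (249.0), and in neither Th2 nor ILC2 libraries.

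Dusp2, a nuclear phosphatase of ERK found in activated lymphocytes, had 748.5 and 869.8 tags at its promoter (chr2:127331268-127340557) in naive T cells and 544.2 and 546.7 in Th2 cells. The ILC2 libraries held 198.4 and 174.3, spleen 703.9 and thymus 1165.1, so that the ILC2 values again lay below all others. The log2 difference was -1.94 (SE 0.16, adjusted p = 0.0086) against naive T cells and -1.99 (SE 0.16, adjusted p = 0.0111) against Th2 cells. Peak length was 3649 and 3394 bp in ILC2s and 7233 to 8541 bp elsewhere. Per kb the difference from naive T cells still passed, at -0.78 (adjusted p = 0.032), and that from Th2 cells did not, at -0.76 (adjusted p = 0.063). The region also covers the start of Astl, so the tags cannot be divided between the 2 genes.

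Dusp16, another phosphatase of JNK and p38, was the member with the most regions called in Th2 cells alone. Its promoter region (chr6:134785442-134794751) held 257.0 and 275.4 tags in naive T cells, 499.9 and 642.8 in Th2 cells, 301.1 and 272.0 in ILC2s, 262.9 in spleen and 340.4 in thymus. Both Th2 libraries lay above all 6 others. It was lower in ILC2s than in Th2 cells, with a log2 difference of -1.42 (SE 0.20, adjusted p = 0.031), while the Th2 excess over naive T cells of 1.71 (SE 0.20) did not pass (adjusted p = 0.07). The Th2 peaks were 7602 and 9229 bp long and the others 3674 to 4321 bp. Per kb the difference between ILC2s and Th2 cells was -0.29 and did not pass, nor did it pass without centring (-0.99, adjusted p = 0.0513). With the replicate number, which is the site, as a block in the limma fit, it did not pass either (adjusted p = 0.0587). Inside the gene, chr6:134715077-134717425 held 138.4 and 107.0 tags in Th2 cells and chr6:134743236-134744493 held 39.3 and 41.3, and neither had a peak in any other library. Regions called in both Th2 libraries and no other numbered 3, or 1.83% against 0.16% of all regions. The third was 98919 bp from Ptpn1, close to the distance limit, with 41.8 and 45.5 tags.

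Among the other MAP kinase phosphatases, Dusp1, Dusp5, Dusp6 and Dusp7 had a promoter peak, and Dusp4 a peak in its gene, in all 8 libraries. Dusp1, which acts on p38 and JNK, held 364.0 to 531.6 tags, with both ILC2 values (388.9 and 364.0) the lowest. Dusp4, a nuclear phosphatase of ERK, held 1113.4 and 879.9 tags in naive T cells, 872.1 and 710.1 in Th2 cells, 658.2 and 562.9 in ILC2s, 834.9 in spleen and 1051.7 in thymus, again lowest in ILC2s. At the promoter of Dusp6, which acts on ERK in the cytoplasm, the ILC2 libraries held the highest uncentred values, 1118.0 and 1292.6, against 839.9 to 1113.6 elsewhere. After centring, the log2 difference of ILC2s was 0.42 (SE 0.15) from naive T cells and 0.05 (SE 0.15) from Th2 cells. None of these passed the test. Dusp5, a nuclear ERK phosphatase, had 637.7 to 1160.6 tags at its promoter with overlapping groups, but its region 7476 bp from the gene held 107.4 and 163.7 tags in naive T cells, 96.0 and 123.8 in Th2 cells, 121.2 in spleen and 153.9 in thymus and had no peak in ILC2s. Around Dusp6, a region 84804 bp away was called in ILC2s alone (75.0 and 106.0), and one 17026 bp away was called in all libraries but those of Th2 cells (38.9 to 169.8). Dusp7 held 1200.1 tags in node naive T cells and 1019.5 in spleen against 637.4 in lavage naive T cells and 450.7 to 546.8 in Th2 cells and ILC2s. Dusp8 had at most 146.0 tags and no peak in node Th2 cells, and Dusp9 had 62.2 in node naive T cells, 40.1 in spleen and 48.3 in thymus only.

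**Figure D3:**
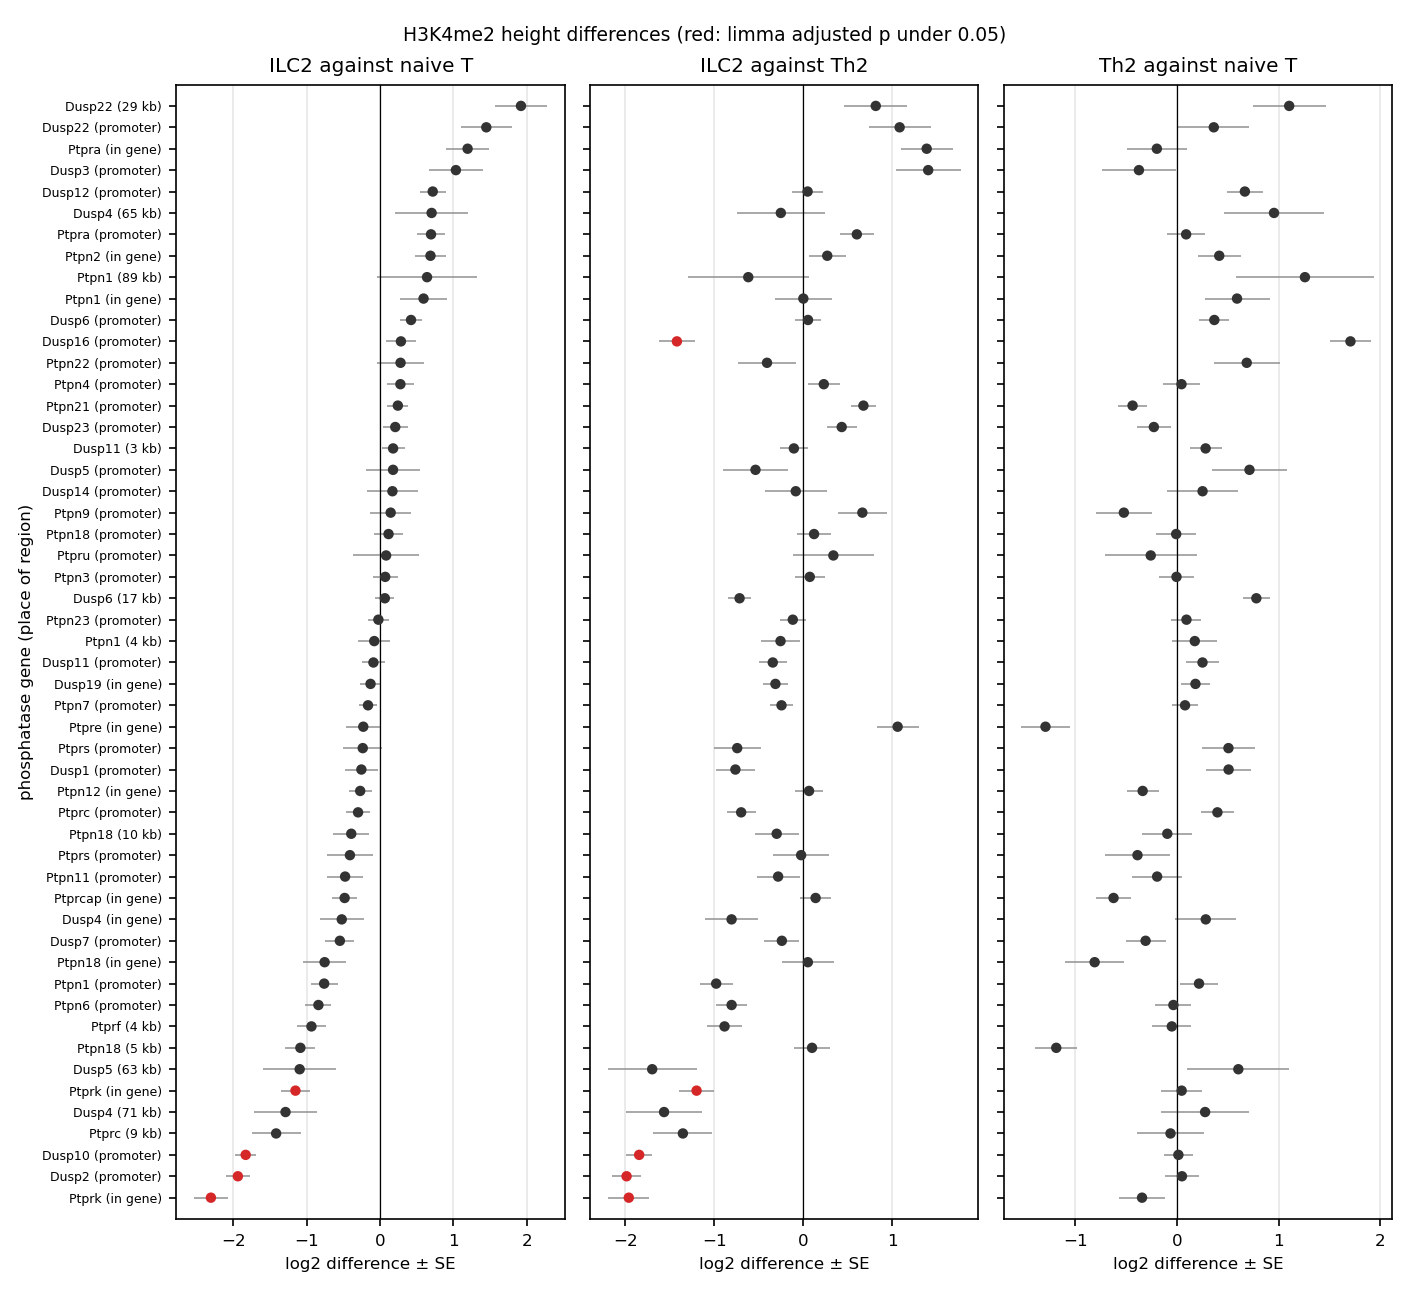
log2 difference in normalized tags of the 52 phosphatase regions with a peak in all 6 airway libraries (points, with the standard error as a bar), ordered by the first of the 3 comparisons, in red where the limma test passed. The 4 regions that passed in ILC2s against naive T cells and the 5 in ILC2s against Th2 cells all lie below 0.

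Counted by role, the 10 MAP kinase phosphatases held 32 regions. Of these, 1 (3.12%, against 10.7% of all regions) was called in ILC2s and not in naive T cells and 4 (12.5% against 2.68%) in naive T cells and not in ILC2s. Of their 12 tested regions 2 were lower in ILC2s than in naive T cells and 3 lower than in Th2 cells, with medians of -0.39 and -0.78, against the shares of 1.62% and 1.28% lower over all tested regions given above. The other dual-specificity genes had 5 of 20 regions (25.0%) in ILC2s and not naive T cells, 4 of them at Dusp22, and 1 (5.0%) the other way. None of their 9 tested regions passed. Non-receptor genes had 8 (14.3%) and 4 (7.14%) of 56 regions, and none of their 19 tested regions passed. Receptor-type genes had 5 (9.09%) and 1 (1.82%) of 55, and 2 of their 11 tested regions were lower in ILC2s in each comparison, both at Ptprk. Differences between the roles were not tested.

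Dusp22, also called JKAP, which removes an activating phosphate from Lck and dampens T-cell receptor signalling, had 4 of the 17 regions called in ILC2s alone. Inside the gene, chr13:30690902-30694066 held 180.8 and 208.1 tags and chr13:30699366-30701183 held 57.3 and 82.3. Upstream, a region 13445 bp from the gene held 42.5 and 55.2 tags, and downstream one 13073 bp away held 131.5 and 118.7. None of the 4 had a peak in the other 6 libraries. The promoter region (chr13:30658495-30662340) held 55.2 and 154.4 tags in naive T cells, 68.6 and 87.6 in Th2 cells, 222.9 and 222.1 in ILC2s, 144.0 in spleen and 131.9 in thymus. Both ILC2 values were above all others, though the log2 difference of 1.45 (SE 0.35) from naive T cells did not pass (adjusted p = 0.096). A region 28522 bp upstream, with 180.8 and 292.2 tags in ILC2s and at most 100.4 elsewhere, reached a difference of 1.92 (SE 0.36, adjusted p = 0.051) and did not pass either. The next gene downstream is Irf4, a transcription factor of activated lymphocytes, which lies 21284 bp from the last of these regions, so nearness alone cannot say which gene they serve.

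Among the other dual-specificity genes, Dusp23 had a region 27751 bp away in ILC2s alone (101.4 and 106.4 tags). Dusp26 had 1 region, 55752 bp away, with 97.0 and 97.7 tags in ILC2s and 40.6 in node naive T cells. A region beside Dusp11, which acts on RNA, was called in naive T cells (42.2 and 115.8), spleen (95.1) and thymus (70.4) but not in Th2 cells or ILC2s. At the promoter of Dusp3, which acts on ERK and JNK, ILC2s held 192.4 and 162.5 tags and the other types at most 119.5, with no peak in thymus, and ILC2s exceeded Th2 cells by 1.41 (SE 0.37), which did not pass (adjusted p = 0.11). Dusp14, a restraint on T-cell receptor signalling, had 173.9 to 392.9 tags and overlapping groups.

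**Figure D4:**
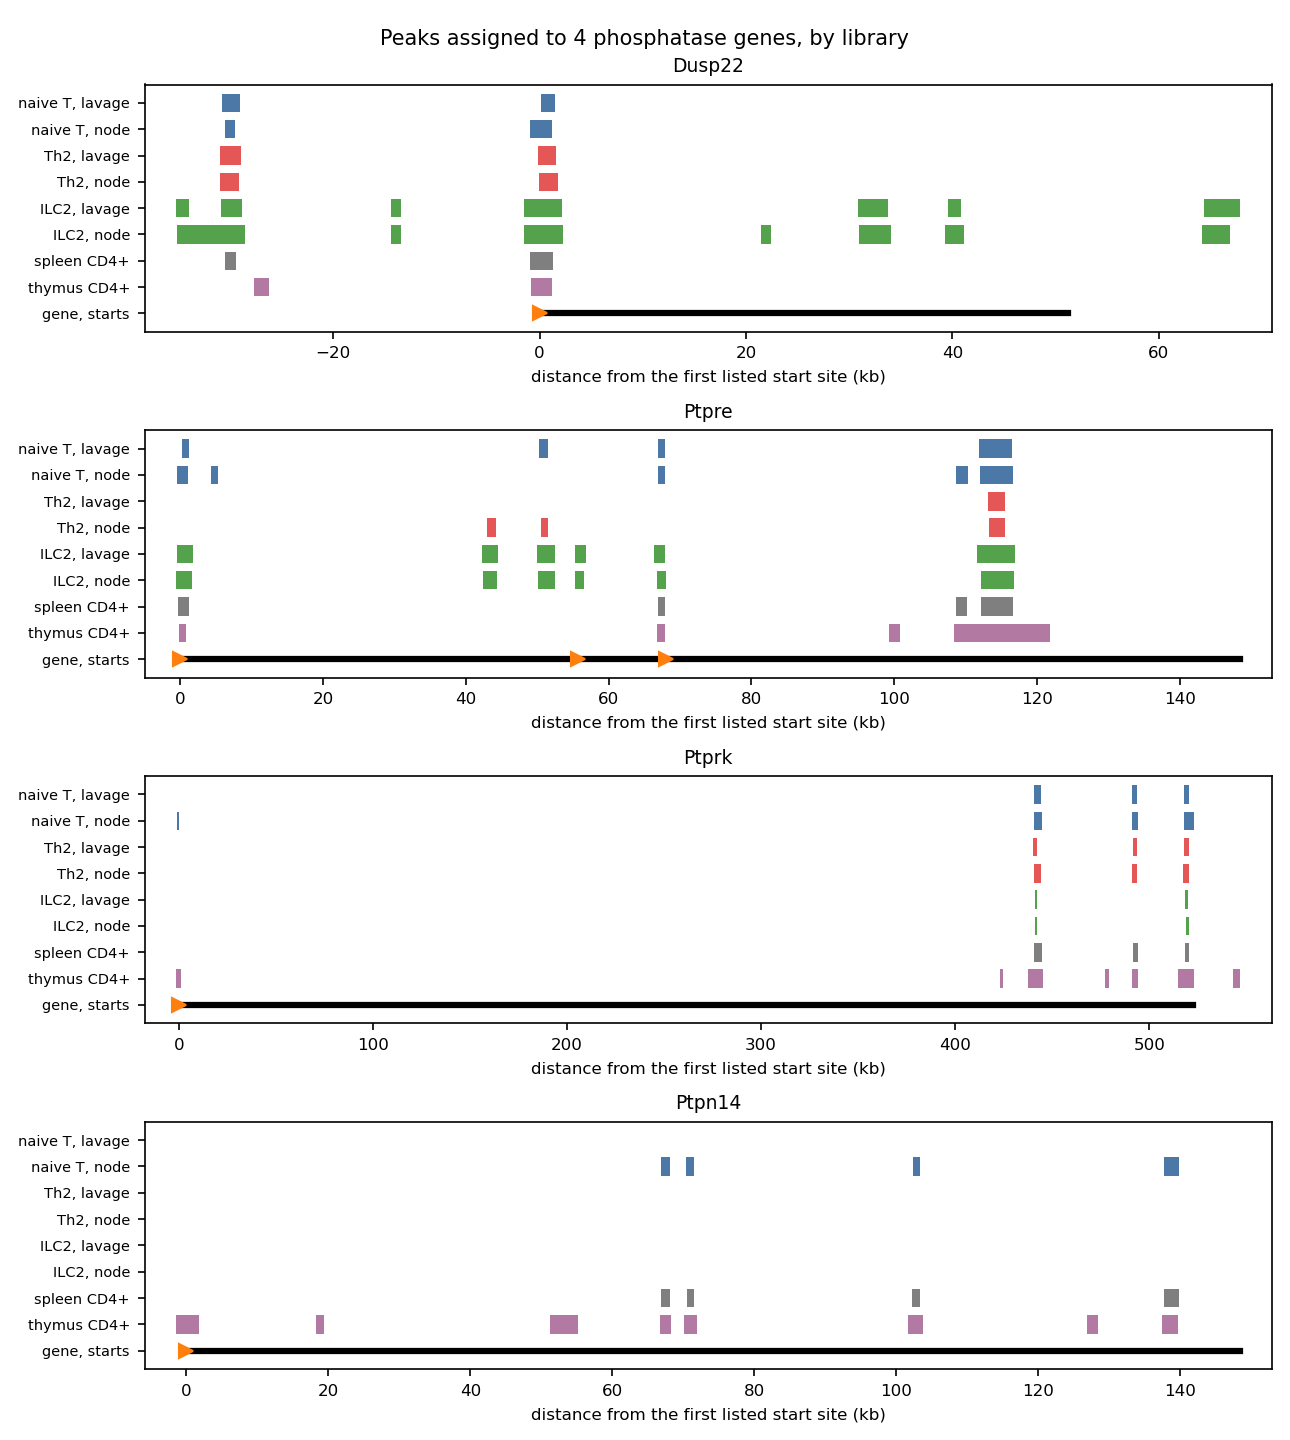
Peaks (bars, to scale) assigned to Dusp22, Ptpre, Ptprk and Ptpn14 in each library, by distance in kb from the first listed start site, with the gene as a black line and listed starts as orange triangles. Bars over the Dusp22 gene body beyond the start are in the ILC2 rows only, the ILC2 rows at Ptprk hold 2 short bars, and Ptpn14 has bars in node naive T cells, spleen and thymus only.

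Among receptor-type genes Ptpre, which acts on Src-family kinases, had the most regions called in an airway type and not in another, at 4. Those over its start sites were among them. The region over its first start (chr7:135537297-135539663) held 44.7 and 79.6 tags in naive T cells, 117.9 and 108.2 in ILC2s, 84.4 in spleen and 41.5 in thymus, and had no peak in either Th2 library. The last start (chr7:135604244-135605838) followed the same order, with 42.2 and 41.4, 78.2 and 67.0, 42.9 and 52.5, and none in Th2 cells. The middle start, whose window above holds the GATA letters, was covered in ILC2s alone (71.8 and 50.4 tags, chr7:135593108-135594625). The sequence match is a description and not evidence of binding, and peak calls do not measure the use of a start. Several of these tag counts lie near the limit of about 40, and the Th2 libraries were the shallowest by number of peaks. Further into the gene, chr7:135646182-135659688 was marked in all libraries, at 319.7 and 643.6 tags in naive T cells, 129.7 and 112.9 in Th2 cells, 367.6 and 318.0 in ILC2s, 583.2 in spleen and 1272.8 in thymus. Th2 cells were lowest there, at a log2 difference of -1.29 (SE 0.24, adjusted p = 0.11) from naive T cells, and ILC2s exceeded Th2 cells by 1.06 (SE 0.24, adjusted p = 0.081). Neither passed.

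Ptprk, a receptor-type phosphatase whose loss impairs CD4+ T-cell development in rats, was marked far from its start. Its region chr10:28512498-28519947 held 173.9 and 317.3 tags in naive T cells, 102.2 and 143.2 in Th2 cells, 43.7 and 40.3 in ILC2s, 203.2 in spleen and 683.4 in thymus. ILC2s lay below all others, by -2.30 (SE 0.23, adjusted p = 0.0104) against naive T cells and -1.96 (SE 0.23, adjusted p = 0.0202) against Th2 cells, and thymus lay above all others. The region chr10:28589545-28598125 held 138.8 and 271.4, 132.2 and 129.7, 75.4 and 78.8, 163.6 and 724.9 tags in the same order. Its differences were -1.15 (SE 0.20, adjusted p = 0.045) and -1.20 (SE 0.20, adjusted p = 0.045). Without centring neither passed (-1.33, adjusted p = 0.0721, and -0.76, adjusted p = 0.168), and without either Th2 library the first did not (adjusted p = 0.109). Peaks in ILC2s were 1000 bp each at the first region and 1609 and 1519 bp at the second, against 2076 to 7449 bp and 2121 to 8580 bp elsewhere. The ILC2 peaks at the first region thus had the caller's initial size, and their tags lie at its limit of about 40. Without a peak in either ILC2 library that region would not have been tested. Per kb the differences from naive T cells were -0.29 and 0.08, those from Th2 cells -0.41 and -0.14, and none passed. Between these regions chr10:28565870-28569229 held 117.4 and 301.0 tags in naive T cells, 94.8 and 123.0 in Th2 cells, 203.7 in spleen and 432.9 in thymus, and had no peak in ILC2s. All 3 regions lie in the gene, and the next gene is Themis, a T-cell adaptor with no peak in ILC2s, at 148413, 70235 and 99131 bp. The promoter itself had a peak only in node naive T cells (61.8) and thymus (120.8).

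CD45 carried a marked domain along the 5′ part of its gene in every library. The Ptprc region chr1:138124187-138179808 held 6186.0 and 6811.0 tags in naive T cells, 5269.3 and 5923.8 in Th2 cells, 4473.0 and 4848.8 in ILC2s, 5480.6 in spleen and 4938.4 in thymus, over 46457 to 55621 bp. By total tags, not scaled for length, its peak ranked 1 to 3 in 6 of the lists. It was split into smaller peaks in lavage ILC2s and thymus, where the largest ranked 16 and 10. The difference between ILC2s and Th2 cells was -0.70 (SE 0.16) and did not pass (adjusted p = 0.089). Upstream, chr1:138184325-138193648 held 509.5 and 438.0 tags in naive T cells, 238.1 and 366.5 in Th2 cells, 182.8 and 133.6 in ILC2s, 352.4 in spleen and 361.9 in thymus, lowest in ILC2s at -1.42 (SE 0.33, adjusted p = 0.093) against naive T cells. Ptprcap, the CD45-associated membrane protein, which is not itself a phosphatase, held 313.0 and 544.4 tags in naive T cells, 173.3 and 176.9 in Th2 cells and 272.6 and 249.7 in ILC2s, in a region that also overlaps Coro1b.

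CD148 (Ptprj), a receptor-type phosphatase of Src-family kinases, showed the widest split by site. It had 6 regions in lavage naive T cells and 5 in lavage Th2 cells, against 1 in each node partner and 1 in spleen, and 2 in each ILC2 library. Thymus had 4, of which 3 were in no other library. A listed Ptprj start had a peak over it in all 8 libraries, though in a region assigned to another gene. The tallest region assigned to Ptprj, chr2:90486502-90492615, held 386.2 tags in lavage naive T cells and none in node naive T cells, 341.6 and 271.3 in Th2 cells, 206.4 and 106.9 in ILC2s, and had no peak in spleen or thymus. The lavage naive T library thus went with the Th2 cells and ILC2s there. Among rarer receptor-type members Ptprr, which acts on ERK, had 1 region, over the start site shown above, with 141.1 and 89.4 tags in ILC2s and no peak elsewhere. Ptprg had 56.5 and 80.6 tags 1004 bp from the gene, and Ptprb, the endothelial phosphatase VE-PTP, 79.0 and 60.0 tags 12308 bp away, both in ILC2s alone.

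The non-receptor restraints of cytokine and antigen receptors were marked in all types. Ptpn2, which acts on JAK1, JAK3 and Lck, held 384.5 and 419.3 tags over its region common to all libraries (chr18:67716458-67726983) in naive T cells, 339.7 and 360.5 in Th2 cells, 479.4 and 680.2 in ILC2s, 344.0 in spleen and 427.1 in thymus. Both ILC2 values were the highest, at 0.69 (SE 0.21, adjusted p = 0.16) above naive T cells, which did not pass. Inside the gene chr18:67686768-67689747 (116.7 and 146.7) and chr18:67711088-67712992 (101.4 and 109.1) were called in ILC2s alone. A further region, chr18:67695312-67700924, held 257.4 and 232.6 tags in ILC2s, 107.8 and 56.4 in Th2 cells and 185.6 in lavage naive T cells, with no peak in node naive T cells, spleen or thymus.

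Ptpn22, which works with Csk against Lck and Zap70, held 2628.9 and 1831.0 tags at its promoter region in naive T cells, 2370.1 and 2243.3 in Th2 cells, 2389.2 and 2314.5 in ILC2s, 1596.5 in spleen and 1294.3 in thymus. All 5 libraries of lavage or of Th2 cells and ILC2s were above the node naive T, spleen and thymus libraries. At its far end, chr3:103906799-103909325 held 107.8 tags in each Th2 library and 78.6 in lavage naive T cells, and no other library had a peak. SHP-1 (Ptpn6) showed the reverse order, at 1083.8 and 1670.2 tags in naive T cells, 743.7 and 989.8 in Th2 cells, 662.3 and 665.3 in ILC2s, 1423.2 in spleen and 1429.4 in thymus. Its region also covers the start of Grcc10, and the difference of -0.84 (SE 0.18) between ILC2s and naive T cells did not pass (adjusted p = 0.069). A second Ptpn6 region, chr6:124720249-124724869, held 144.6 and 218.6 tags in naive T cells, 77.9 and 109.5 in Th2 cells, 183.2 in spleen and 186.5 in thymus, and had no peak in ILC2s.

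PTP1B (Ptpn1), which acts on insulin and cytokine receptors, held 1693.9 and 2014.3 tags at its promoter in naive T cells, 1373.9 and 1432.1 in Th2 cells, 1080.3 and 856.8 in ILC2s, 1780.7 in spleen and 761.7 in thymus. ILC2s fell short of Th2 cells by -0.98 (SE 0.18), which did not pass (adjusted p = 0.058). SHP-2 (Ptpn11), which promotes Ras and ERK signalling, held 215.7 and 198.3, 121.6 and 114.6, 113.4 and 152.0, 234.9 and 214.3 tags at its promoter in the same order. Its region 17968 bp away had no peak in ILC2s and 42.0 to 99.1 tags in all others. Ptpn7, a phosphatase of ERK and p38 in blood cells, held 624.0 to 1272.3 tags and the airway groups overlapped. The nearest of the non-receptor genes to passing was Ptpn18, whose region chr1:34478325-34482414 held 167.6 and 237.7 tags in naive T cells, 57.3 in each Th2 library and 97.8 and 70.5 in ILC2s, with a difference of -1.08 (SE 0.21, adjusted p = 0.053) between ILC2s and naive T cells.

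Several other non-receptor genes had single regions called in ILC2s alone. Ptpn5, also called STEP and known from neurons as a phosphatase of ERK, had a peak over the start shown above in ILC2s alone (77.4 and 87.2 tags), and another 38277 bp away (43.3 and 55.2). Its remaining region (chr7:47110387-47112676) had peaks in lavage naive T cells (128.7) and lavage Th2 cells (63.6) only. Ptpn12, a phosphatase of focal adhesion proteins, had chr5:21031558-21034120 in ILC2s alone (140.7 and 71.4). Ptpn3 had chr4:57278344-57279895 in ILC2s alone (46.9 and 71.4), and chr4:57305805-57309158 in Th2 cells (61.1 and 49.7) and ILC2s (93.4 and 131.0) but in neither naive T library.

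Th2 cells were compared with the cells sorted as naive T cells, of which the lavage library carried Il1rl1, Il13 and Il4 signal as given above. Calls differed at few phosphatase regions. Both Th2 libraries and neither naive T library had 4 of the 164 regions, or 2.44% against 1.01% of all, at Dusp16 (2), Ptpn1 and Ptpn3. The reverse held for 8, or 4.88% against 5.28%, at Dusp10, Dusp11, Dusp6, Ptpn22, Ptpn4, Ptprs and Ptpre (2). Without the lavage naive T library the first count was 7 (4.27% against 3.29%) and the second 31 (18.9% against 25.5%), and without the node one the second was 16 (9.76% against 7.14%). With 14723 peaks from every list the counts turned to 6 (4.84% against 2.96%) and 2 (1.61% against 2.43%). Between ILC2s and Th2 cells, both type 2 cytokine producers, 26 regions at 15 genes were called in ILC2s and not in Th2 cells, or 15.9% against 18.0% of all. The 9 regions, at 8 genes, called in Th2 cells and not in ILC2s made up 5.49% against 1.39% of all, and 15 (9.15% against 1.96%) were called so without the node Th2 library. With 14723 peaks from every list, 9 were called in ILC2s and not Th2 cells (7.26% against 7.3%) and 14 the other way (11.3% against 6.24%). The 9 in the full lists lay at Dusp16 (2), Dusp10, Dusp5, Ptpn1, Ptpn11, Ptpn22, Ptpn6 and Ptprk.

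**Figure D5:**
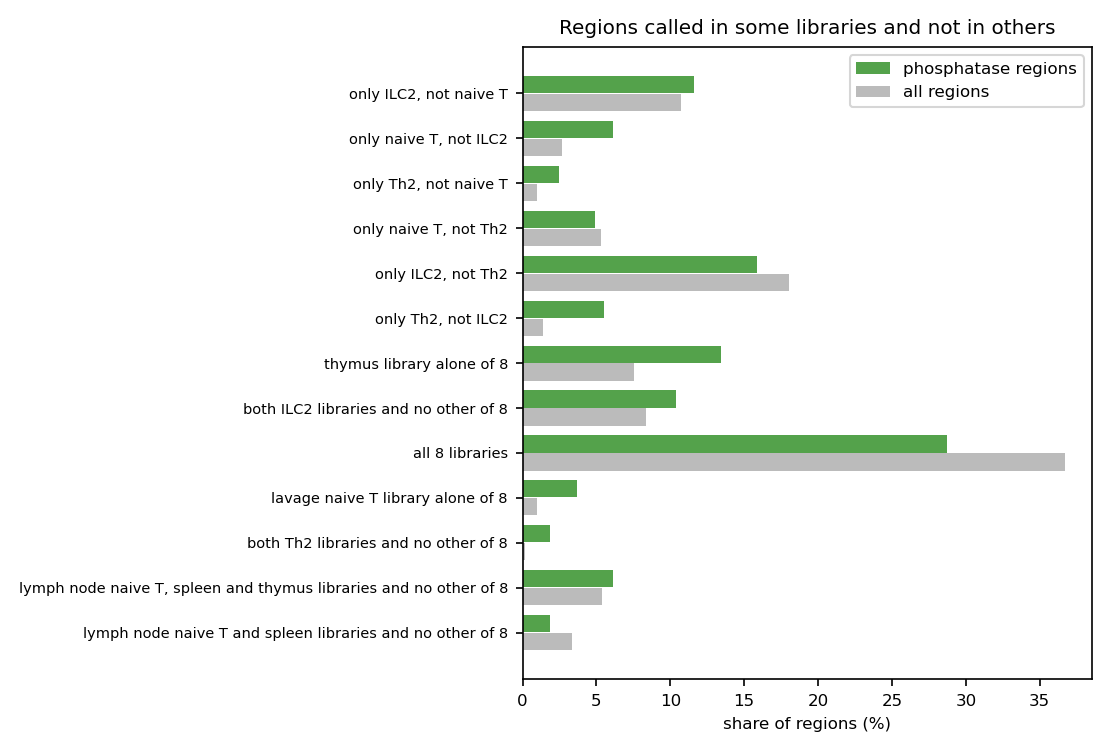
Share of regions, in percent, called in the named libraries and not in the compared ones, for the 164 phosphatase regions and for all 30062 regions. The thymus library alone holds 13.4% of the phosphatase regions against 7.57% of all, and Th2 cells against ILC2s 5.49% against 1.39%.

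The kinases and adaptors on which these phosphatases act or with which they act served as a list for comparison: 38 genes, 37 of them with a region, and 146 regions. Of these, 16 (11.0%, against 10.7% of all regions) were called in ILC2s and not naive T cells and 10 (6.85% against 2.68%) the other way. There were 18 (12.3% against 18.0%) in ILC2s and not Th2 cells and 5 (3.42% against 1.39%) the other way, and 2 (1.37% against 1.01%) in Th2 and not naive T cells and 6 (4.11% against 5.28%) the other way. In height, 4 of 56 tested regions were lower in ILC2s than in naive T cells, at Lck, Fyn, Lat and Ubash3a, and none was higher. Over all tested regions 1.62% were lower and 2.61% higher. Against Th2 cells, 4 were lower and 1, at Jak1, was higher, beside 1.28% lower and 2.1% higher over all. Between Th2 and naive T cells none of the 56 passed. In summed tags, Lck, a substrate of CD45 and Dusp22, and the T-cell receptor adaptor Lat were thus lower in ILC2s, as were the promoters of Dusp2 and Dusp10. Summed tags grow with peak length, and values per kb are not given for the kinase and adaptor regions. Map2k6, the kinase that activates p38, alone had 6 of the 16 regions called in ILC2s and not in naive T cells.

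The thymus and spleen libraries had no replicate, so their differences carry no test. In thymus alone of the 8 libraries were 22 phosphatase regions, at 13 genes, or 13.4% against 7.57% of all regions. Thymus and not spleen had 24 (14.6% against 11.6%), and spleen and not thymus 10 (6.1% against 9.71%). Of 80 regions called in both, 14 were more than 2-fold higher in thymus, or 17.5% against 7.91%, and 3 more than 2-fold lower, or 3.75% against 4.68%. The median log2 difference was 0.26 over these and 0.29 over all.

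Ptpn14, a cytoplasmic phosphatase known for binding the growth regulator YAP, was the clearest case. It had 8 regions in thymus, 4 of them in no other library, and no peak in either Th2 or ILC2 library or in lavage naive T cells. Its promoter held 274.7 tags and chr1:189779559-189783370 held 375.6, both in thymus alone. The 4 regions shared with node naive T cells and spleen held 100.3 to 240.1 tags in thymus, 48.3 to 160.9 in node naive T cells and 44.3 to 139.8 in spleen. Ptprk had 7 regions in thymus, 3 of them there alone. Ptprf, also called LAR, held 502.7 tags in chr4:118256527-118262769 in thymus against 106.3 in spleen and 124.3 in node naive T cells, with no peak in the other libraries. Ptpra, which activates Src-family kinases, had 303.6 tags in thymus alone at chr2:130530084-130533920. Ptpn1 went the other way, with 761.7 tags at its promoter in thymus against 1780.7 in spleen. The thymus library also held the Cd8a and Cd8b1 signal given above, and the part of CD8-expressing CD4+ thymocytes in these values was not tested.

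The lavage and node libraries shared more phosphatase regions in ILC2s than in either T-cell type. In naive T cells 73 phosphatase regions were shared by both libraries, 19 were in lavage only and 24 in node only. The numbers were 65, 12 and 7 for Th2 cells and 91, 3 and 5 for ILC2s. As a share of regions in either library, the overlap was 0.919 for ILC2s, 0.774 for Th2 cells and 0.629 for naive T cells, against 0.881, 0.861 and 0.647 over all regions. The node naive T library overlapped with spleen at 0.928 (0.892 over all) and the lavage naive T library with lavage Th2 cells at 0.724 (0.8 over all). Regions in the lavage naive T library and in neither the node naive T nor the spleen library numbered 19, or 11.6% against 4.67% of all. They lay at Ptprj (5), Ptpn11 (3), Dusp4 (2), Ptpn2 (2) and 7 other genes with 1 each. Of these 19, 11 also had a peak in a Th2 library (57.9%, against 62.6% of all such regions) and 8 in an ILC2 library (42.1% against 63.3%). In that library alone of the 8 were 6 regions, or 3.66% against 0.985% of all, among them 3 within Ptpn11 with 40.5, 80.2 and 102.4 tags. Node naive T, spleen and thymus libraries and no other had 10 regions (6.1% against 5.36%), and node naive T and spleen libraries and no other had 3 (1.83% against 3.34%).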

How the data were processed

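H3K4me2 peak lists of 8 libraries were used. Bowtie, HOMER and mm10 are named, without versions, in the submitters' processing notes. HOMER findPeaks called peaks in each library separately, per the file headers, with an initial size of 1000 bp, a minimum distance of 2500 bp, stitching into regions and a 4-fold excess over an IgG library, which was the thymus one for all lists but that of spleen. The deposited signal is the normalized tag count, scaled by the authors to 10000000 tags, and the deposited ratio, the fold change over the IgG control, was not used further.

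Peaks of the 8 lists were merged within 500 bp. A library's value in a region is the sum over its peaks, and a region went to the nearest protein-coding gene interval of RefSeq GRCm38.p6 within 100000 bp, with ties to the longest overlap. Of the 773 peaks nearest to these genes, 761 lie in their merged regions and 12 in regions assigned elsewhere. Height was tested with limma 3.58.1 in R 4.3.3, across all 11644 regions with a peak in all 6 airway libraries, on log2 tags centred on each library's median, in one fit of 3 cell types, adjusted by Benjamini-Hochberg. On simulated data for ILC2s against naive T cells over 11644 regions the test recovered 78 of 100 regions changed by 2 and 91 of 100 changed by 3 on the log2 scale, with 6 false calls. The simulated noise was independent between libraries, without a shared site effect, and no change was smaller than 2. The simulation therefore does not show recovery of the smaller differences reported here. Replicates share a cell type and differ in site, so p-values measure the spread between these samples.

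Motifs were searched in the 250 bases before each start of the RefSeq promoter table, which holds 49 of the 61 genes. Named genes are those with a region called in both libraries of one airway type and neither of another, those past the test, a list of receptor-signalling phosphatases and MAP kinase phosphatases, and those marked in spleen or thymus only. Dusp3, Dusp14, Dusp23 and Ptpn18 values and the rarer loci were given to fill out the roles. Members, lists and tests were chosen with earlier results of these data known. Tables were made with Python 3.11.15 and pandas 2.3.3. Protein sequences were not used here.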

Additional observations from a re-analysis of the deposited data

How the results depend on the processing

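Leaving out centring moved the median of all regions by -0.20 (ILC2s against naive T cells), -0.61 (Th2 against naive T cells) and 0.42 (ILC2s against Th2 cells). In this order, 1, 1 and 4 of the 52 phosphatase regions were then higher, beside 232, 38 and 733 of all 11644. Lower were 5, 3 and 3 of the 52, beside 209, 739 and 107 of all. With tags per kb of peak, 1 region was lower in ILC2s than in naive T cells and 0 lower than in Th2 cells. Over all 11644 regions the numbers were 20 and 4. The Ptprk region at 28589545 then changed sign, at 0.077 against naive T cells. With the tallest peak, or with the 6 airway lists merged alone, 1 region was higher in ILC2s than in Th2 cells. Over all regions the numbers were 252 of 11644 and 251 of 11669. Site is the replicate number, and deviations of same-numbered libraries correlated at 0.107, -0.012 and 0.258 (naive T with Th2, naive T with ILC2, Th2 with ILC2), so the numbers were not taken as pairs. With the replicate block, 3 regions were lower in ILC2s than in naive T cells and 3 lower than in Th2 cells. Over all 11644 regions the numbers were 170 and 94. The calls lost among phosphatase regions were the Ptprk region at 28589545 and the Dusp16 promoter.

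With the same number of peaks, 14723, taken from each list by tags, the regions called only in one type were 11 (ILC2s, not naive T cells), 2 (naive T cells, not Th2 cells), 9 (ILC2s, not Th2 cells) and 14 (Th2 cells, not ILC2s), so that the excess of ILC2 over Th2 calls turned. In the same lists 11 were called in naive T cells and not ILC2s and 6 in Th2 cells and not naive T cells. The shares that go with these counts are given above. With peaks of at least 80 tags, 2 were called in Th2 and not naive T cells (1.59% against 0.783% of all). With genes within 10000 bp, 12 were called in ILC2s and not naive T cells (9.38% against 10.7% of all). The other way there were 6 (4.69% against 2.68%), and 17 were called in ILC2s and not Th2 cells (13.3% against 18.0%). Of the 36 counts of such calls under these alternatives, 28 stayed within 1.5 times, as did 32 of 42 counts of tested regions. Leaving out a library removes a condition from the rule for these calls, so their counts can only stay or rise. Left out in turn, the libraries gave 20 to 26 (ILC2s, not naive T cells) and 10 to 27 (naive T cells, not ILC2s). The ranges were 5 to 7 (Th2, not naive T cells) and 12 to 31 (naive T, not Th2 cells). They were 28 to 31 (ILC2s, not Th2 cells) and 9 to 15 (Th2 cells, not ILC2s). Tested regions were 0 to 6 higher and 0 to 8 lower for ILC2s against naive T cells, 0 to 11 and 0 to 4 for Th2 against naive T cells, and 0 to 5 and 0 to 13 for ILC2s against Th2 cells. For ILC2s against Th2 cells, leaving out either naive T library gave 5 and 13 and leaving out either Th2 library gave 0 and 0. The cause was not tested. Regions near 40 tags are limited by depth.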
